A study of Mus musculus with 2 samples.

Results

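The genes described here encode the SR proteins, the hnRNPs and the Sm and other U snRNP proteins, taken as every gene whose symbol begins with *Srsf*, *Hnrnp* or *Snrp* and that had at least 20 UMIs over both libraries in cells with at least 1800 genes. A UMI (unique molecular identifier) marks 1 captured RNA molecule. The rule gave 43 genes, namely 11 *Srsf*, 20 *Hnrnp* and 12 *Snrp* genes, of 13184 genes that reached 20 UMIs and 27998 genes listed. All 43 symbols with these prefixes passed. The 3 members with the fewest UMIs were *Srsf12* with 44, *Snrpn* with 1426 and *Hnrnpll* with 4209 UMIs, and no gene with these prefixes lay below the minimum.

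Epithelial cells of the back skin were sorted from C57BL/6 mouse embryos at embryonic day 17 and sequenced as 3′ tags on the 10x Genomics droplet platform. The control library (Ctrl) carried *Mettl3* fl/+, Rosa16-YFP fl/+ and K14Cre, and the conditional knockout library (cKO) carried *Mettl3* fl/fl, Rosa16-YFP fl/+ and K14Cre, with 1 library for each genotype. The reporter is written Rosa16 in the labels and Rosa26 in the methods. K14Cre acts in keratinocytes that express keratin 14 and in their progeny, and both genotypes carried it, so the control was heterozygous for the floxed *Mettl3* allele and also expressed Cre. *Mettl3* encodes the enzyme that writes N6-methyladenosine (m6A) into RNA. Its level was 12.7 CPM (UMIs per 1000000 UMIs, 95% counting interval 11.7 to 13.8) in kept control cells and 6.18 CPM (5.38 to 7.08) in kept cKO cells. The tags lie at the 3′ end and the floxed exon does not, so this level does not measure the deletion. The libraries also differed in sex, with 89523 UMIs of *Xist* in control cells and 1 in cKO cells, so genotype, sex and library cannot be told apart in any value below.

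Pre-mRNA splicing is carried out by small nuclear ribonucleoproteins (snRNPs). Each spliceosomal snRNA of the Sm class carries a ring of the Sm proteins B, D1, D2, D3, E, F and G, which the SMN complex loads in the cytoplasm, and further proteins mark single particles, such as SNRPA and SNRPC in U1 and SNRPA1 and SNRPB2 in U2. SR proteins bind exons through RNA recognition motifs and recruit the splicing machinery through arginine and serine rich tails that SRPK and CLK kinases phosphorylate. The hnRNPs coat nascent RNA and often act against exon inclusion, and HNRNPA2B1 and HNRNPC have been described as proteins whose binding depends on m6A. Many SR and hnRNP genes limit their own output through exons that lead to RNA decay, which 3′ tags do not show.

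Cells were placed by marker gates into 8 types. Basal cells had high *Krt14* and *Krt5* and were split by cycle genes into resting basal, S-phase basal and mitotic basal cells. In control and cKO resting basal cells *Krt14* lay at 10879 and 8457 CPM and *Krt5* at 5294 and 3980 CPM. Both were lower in the cKO library in every type, so the same cut need not take the same share of each library. Suprabasal cells had *Krt1* and *Krt10* and were split into early and late by differentiation genes. Most UMIs of those genes were of *Krtdap*. It lay at 11048 and 10974 CPM in late control and cKO cells, against 6079 and 5854 in early ones. *Sbsn* lay at 902 and 876 against 305 and 326 CPM. *Lor* lay at only 15.7 and 15.6 CPM in late cells, and *Flg* was at 0 in every type. Late is used here for this split only. Bud cells had *Shh*, *Dkk4*, *Fgf20* or *Wnt10b*, and the *Sox9*-gated and *Krt79*-gated follicle cells were taken by *Sox9* and by *Krt79*. Numbers in control and cKO cells were 536 and 253 resting basal, 537 and 285 S-phase basal, 528 and 349 mitotic basal, 179 and 158 early suprabasal, 213 and 124 late suprabasal, 302 and 340 bud, 420 and 450 *Sox9*-gated, and 236 and 192 *Krt79*-gated cells. Basal cells of every cycle state together numbered 2170 and 1338, and 865 and 938 kept cells met no gate. Kept were 4447 cells holding 43874554 UMIs in the control and 3577 holding 34116275 in the cKO library, and 16 barcodes were kept in both libraries. Of genes no gate used, *Lgals3* lay at 2788 and 2376 CPM in late suprabasal against 119 and 135 in resting basal cells. *Kif23* lay at 82.99 and 90.3 in mitotic against 1.40 and 2.58 in resting basal cells. *Bmp2* (182 and 173), *Lef1* and *Edar* were highest in bud cells. *Ptch1*, checked for bud cells, lay at 109 and 91.6 CPM there against 241 and 214 in *Sox9*-gated cells. Of the genes checked for *Sox9*-gated cells, *Trps1* and *Lhx2* were higher there than in *Krt79*-gated cells in both libraries. *Nfatc1*, *Tgfb2* and *Krt17* were lower there, such as *Tgfb2* at 145 and 158 against 348 and 352 CPM. The 5 genes checked for *Krt79*-gated cells did not all follow the name. *Krt17* lay at 4782 and 4262 CPM there against 886 and 1000 CPM in resting basal cells and *Lrig1* at 71.6 and 82.5 against 27.5 and 33.5, while *Plet1* at 32.2 and 32.2 lay below *Sox9*-gated cells, *Cst6* was lower than in any other type, at 5.22 and 2.93, and *Defb6* was at 0 in every type. The type is therefore called by its gate. Markers of other cells moved between types, since the 6 fibroblast genes summed to between 39.0 and 2288 CPM in control types with *Dcn*, highest in bud cells, as nearly all of it, while *Pdgfra* was at or near 0. The part of other cells in the results was not tested. Median UMIs per cell lay between 7414 in resting basal cKO cells and 11570 in early suprabasal control cells, and the median mitochondrial share between 4.02% and 5.80%, highest in mitotic basal cells.

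The promoters of 3 genes are shown because results below turn on these genes. *Srsf10* had the highest fold change in the S phase, and *Snrpb2* and *Snrpg* had the highest cKO over control ratios. Each runs from 250 bases before to 50 bases after the RefSeq start on GRCm38.p6 and is written 5′ to 3′ on the + strand, which is the strand of the gene. Capitals in *Srsf10* mark TTCCCGC (an E2F-like word) and capitals in *Snrpb2* and *Snrpg* mark CTTCCG (an ETS-like word), both searched on either strand. The windows are chr4:135855821-135856120 for *Srsf10*, chr2:143062819-143063118 for *Snrpb2* and chr6:86371290-86371589 for *Snrpg*.
*Srsf10*: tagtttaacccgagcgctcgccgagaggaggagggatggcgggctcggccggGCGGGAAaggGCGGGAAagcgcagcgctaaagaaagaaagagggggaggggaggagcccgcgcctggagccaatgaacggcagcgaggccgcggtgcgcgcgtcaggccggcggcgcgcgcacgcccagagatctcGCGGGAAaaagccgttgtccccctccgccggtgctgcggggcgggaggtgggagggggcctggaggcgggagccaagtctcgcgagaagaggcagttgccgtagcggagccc
*Snrpb2*: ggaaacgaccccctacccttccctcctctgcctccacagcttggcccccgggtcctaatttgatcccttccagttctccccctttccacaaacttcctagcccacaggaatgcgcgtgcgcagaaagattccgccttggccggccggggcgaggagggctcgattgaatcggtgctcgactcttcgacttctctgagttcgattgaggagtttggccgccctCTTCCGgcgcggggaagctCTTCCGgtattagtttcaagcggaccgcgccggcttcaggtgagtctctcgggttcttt
*Snrpg*: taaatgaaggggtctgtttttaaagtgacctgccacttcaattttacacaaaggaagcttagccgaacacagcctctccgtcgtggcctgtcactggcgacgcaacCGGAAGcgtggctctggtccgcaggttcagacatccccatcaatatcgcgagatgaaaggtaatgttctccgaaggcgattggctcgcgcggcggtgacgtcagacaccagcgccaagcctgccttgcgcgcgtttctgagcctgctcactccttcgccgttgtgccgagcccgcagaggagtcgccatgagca
TTCCCGC occurred 3 times in *Srsf10*, and CTTCCG occurred 2 times in *Snrpb2* and 1 time in *Snrpg*. Promoters of 39 of the 43 genes were in the table, and 8 words were searched, chosen after member promoters had been seen. CTTCCG was in 46.2% of the members' promoters against 18.8% of all 27025 promoters, and in 7 of 10 *Snrp*, 6 of 18 *Hnrnp* and 5 of 11 *Srsf* promoters. TTCCCGC was in 20.5% against 5.29%, CACGTG in 15.4% against 8.09%, CCAAT in 53.8% against 41.1% and TCTCGCGA in 10.3% against 1.13%. The remaining words, TTTCGCGC, ACTACAA and TATAAA, were in 2.56%, 5.13% and 15.4% against 0.374%, 3.78% and 15.7%. All promoters include those of genes that are silent in skin, so these shares are descriptions of the letters alone.

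To see how abundant each family is, UMIs were summed over each type in each library and scaled to CPM. Because 1 tag is made per molecule, CPM were not divided by gene length. In resting basal cells the *Hnrnp* genes summed to 6012 CPM (5939 to 6086) in control and 5656 (5550 to 5762) in cKO cells. The *Snrp* genes summed to 3699 CPM (3642 to 3757) and 3803 (3717 to 3891), and the *Srsf* genes to 2776 (2726 to 2826) and 2768 (2695 to 2844). The *Hnrnp* family had the highest sum of the 3 in both libraries, over 20 genes against 12 *Snrp* and 11 *Srsf* genes. The sums were not divided by the number of genes. The average resting basal control cell held 48.2 UMIs of *Hnrnp*, 29.7 of *Snrp* and 22.3 of *Srsf* genes.

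**Figure D1:**
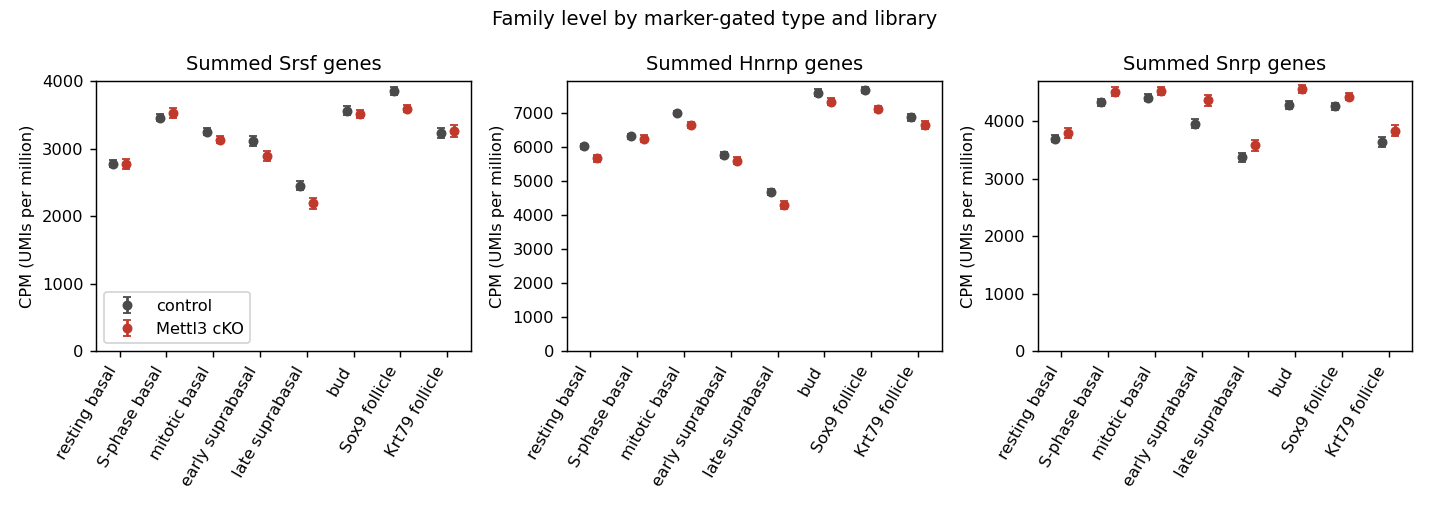
Summed CPM of the *Srsf*, *Hnrnp* and *Snrp* genes (y axis, from 0) in each marker-gated type (x axis) in the control and the cKO library, 1 point per library with a 95% Poisson counting interval. Late suprabasal cells are lowest in all 3 panels and in both libraries.

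Late suprabasal cells had the lowest sum of each family in both libraries. Their *Srsf* genes summed to 2453 and 2189 CPM, their *Hnrnp* genes to 4672 and 4292 CPM, and their *Snrp* genes to 3374 and 3584 CPM in control and cKO cells. The highest *Srsf* sum was in *Sox9*-gated cells, at 3853 and 3595 CPM, 1.57 and 1.64 times the lowest. The highest *Hnrnp* sum was 7665 CPM in *Sox9*-gated control cells and 7325 CPM in bud cKO cells, with the 2 types next to each other in the order of both libraries. The *Snrp* sum varied least, with its highest value at 4416 CPM in mitotic basal control cells and 4565 CPM in bud cKO cells, 1.31 and 1.27 times the lowest. Neighbours in these orders often had overlapping counting intervals, such as mitotic basal (4363 to 4470) and S-phase basal control cells (4275 to 4388) for *Snrp*. Of the 42 members other than *Srsf12*, 33 had their lowest CPM in late suprabasal control cells and 32 in late suprabasal cKO cells. For *Srsf* genes this held for 9 and 10 of 10, and for *Snrp* genes for 6 and 5 of 12. The median of all genes was itself -0.09 and -0.05 in late suprabasal against resting basal cells on the log2 CPM scale. The share of all genes lowest in late suprabasal cells is not given, so these counts have no background. The median member differed 1.62-fold in control and 1.64-fold in cKO cells between its highest and lowest type, from 1.22-fold for *Snrpa1* to 4.01-fold for *Hnrnpll* in control cells.

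These sums depend on how libraries are scaled. The median gene moved by 0.25 and 0.24 on the log2 CPM scale in *Sox9*-gated, by 0.23 and 0.22 in *Krt79*-gated, and by 0.12 and 0.14 in bud cells against resting basal cells in control and cKO, and by less than 0.1 in the other contrasts. Against those shifts the *Srsf* sum was 0.47 and 0.38 higher in *Sox9*-gated, 0.22 and 0.24 in *Krt79*-gated and 0.36 and 0.34 in bud cells. The tests below therefore used TMM scaling, under which the median of all genes moved by between -0.02 and 0.00.

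Each type was then tested against resting basal cells with edgeR's quasi-likelihood test, with library as a term, and a gene was called at a Benjamini-Hochberg adjusted p under 0.05 over all genes and a log2 fold change of at least 0.32 in either direction (25% higher, or lower by the same factor). The 2 libraries, which differ in genotype, were the replicates. A call is therefore an average difference over both, and the test did not require the 2 to agree. The p-values rest on 1 residual degree of freedom per gene and on the spread shared across genes. Only basal cells were split by cycle genes, and the reference is basal cells low in them. *Kif23*, in control and cKO, lay at 1.40 and 2.58 CPM in resting basal cells. It lay at 31.0 and 29.6 in early suprabasal, 12.5 and 11.3 in late suprabasal and 37.7 and 47.3 in bud cells. In *Sox9*-gated and *Krt79*-gated cells it lay at 45.2 and 40.3, and at 37.0 and 40.4. Type and cycle state thus cannot be told apart in those contrasts. *Srsf12* was too low to be tested, which left 10 *Srsf*, 20 *Hnrnp* and 12 *Snrp* genes. A call of any kind was made for 8 *Srsf*, 15 *Hnrnp* and 8 *Snrp* genes over the 7 contrasts. The matching share of all genes is not given, so these counts have no background. Within a contrast, counts of members passing both limits are read against the share of all tested genes called in that direction. Counts from DESeq2, from unadjusted p, from scaling to totals or without the fold limit have no such share beside them.

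**Figure D2:**
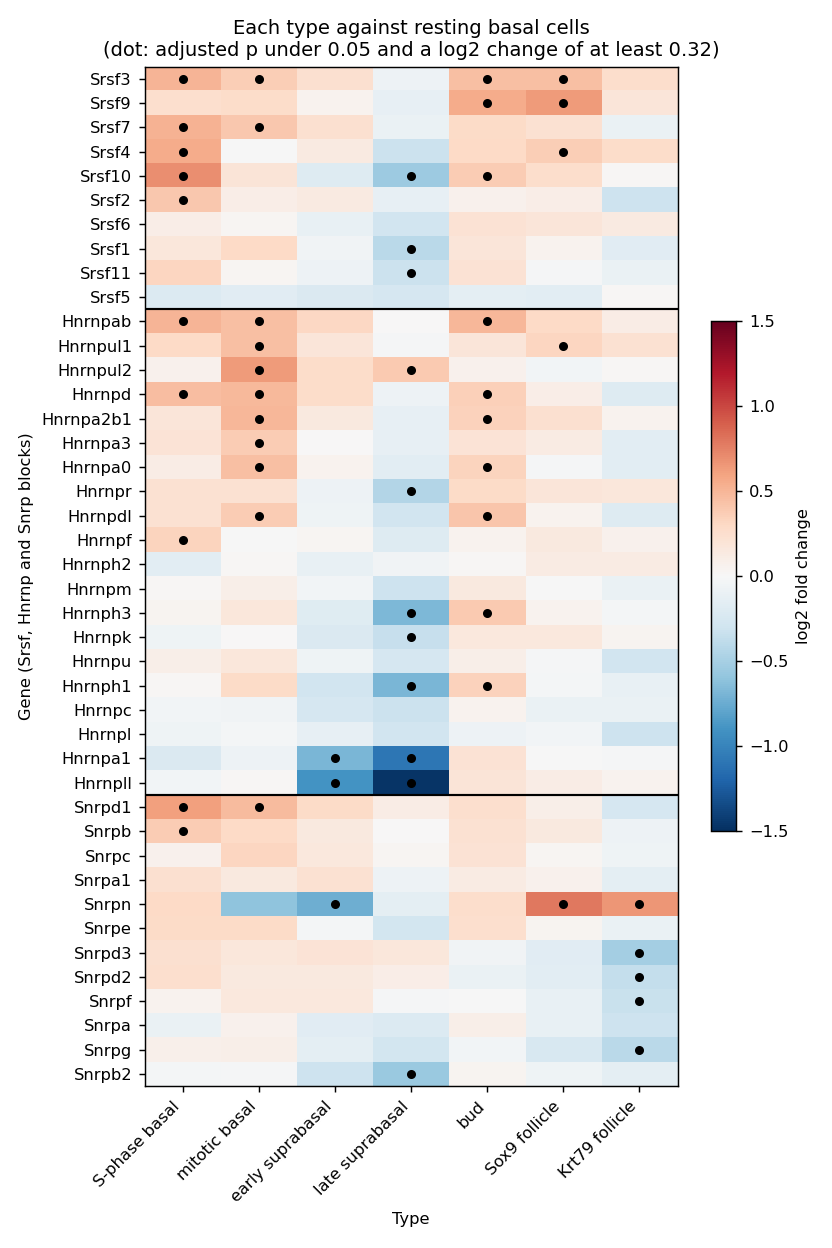
Log2 fold change (colour) of 42 genes (rows, in *Srsf*, *Hnrnp* and *Snrp* blocks) in 7 types against resting basal cells (columns), with a dot where edgeR's adjusted p was under 0.05 and the log2 fold change at least 0.32 in size. Dots in the S-phase, mitotic and bud columns are all on higher values, and 10 of the 11 dots in the late suprabasal column are on lower values.

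In S-phase basal cells 5 of the 10 *Srsf* genes were called higher and 0 lower, of the 20 *Hnrnp* genes 3 higher, and of the 12 *Snrp* genes 2 higher, against 12.1% of all 9850 genes tested higher and 6.78% lower. Over all members 10 of 42 were higher, with a median log2 fold change of 0.36 for *Srsf*, 0.08 for *Hnrnp* and 0.24 for *Snrp* genes, and DESeq2 called 9 higher and 0 lower. No member was called lower, but *Srsf5* (log2 fold change -0.20, edgeR adjusted p = 0.00678) and *Hnrnpa1* (-0.21, edgeR adjusted p = 0.000830) passed the adjusted p below the fold limit, and they were also the 2 members lower at an unadjusted p under 0.05. *Srsf10*, whose protein becomes a splicing repressor when it loses its phosphates, had 142 CPM in resting and 212 in S-phase control cells, and 129 and 239 CPM in cKO cells. Both S-phase values lie above both resting values, and the log2 fold change was 0.70 ± 0.07 (SE, edgeR adjusted p = 2.21e-19). *Snrpd1* encodes SmD1 and had 403 and 615 CPM in control and 377 and 578 CPM in cKO cells, a log2 fold change of 0.62 ± 0.06 (edgeR adjusted p = 7.23e-25). *Srsf4* (log2 fold change 0.56), *Srsf7* (0.52), *Srsf3* (0.51) and *Srsf2* (0.40) were the other *Srsf* genes called. *Hnrnpab* (0.51), *Hnrnpd* (0.46) and *Hnrnpf* (0.34) were the *Hnrnp* genes called, and *Snrpb* (0.38) the other *Snrp* gene. Of the 8 tested genes with TTCCCGC in the promoter window 3 were called higher, with a median of 0.26, and of the 30 without it 5 were, with a median of 0.10.

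In mitotic basal cells the calls lay mostly among hnRNP genes. Higher were 8 of 20 *Hnrnp*, 2 of 10 *Srsf* and 1 of 12 *Snrp* genes, and none was called lower, against 9.75% of 10067 genes higher and 7.93% lower. *Srsf5* was lower at an adjusted p under 0.05 but below the fold limit (-0.17, edgeR adjusted p = 0.0447), 2 members were lower at an unadjusted p under 0.05, and DESeq2 called 9 members higher and 0 lower. *Hnrnpul2* encodes a SAF-A-like nuclear protein, and had 66.8 CPM in resting and 95.2 in mitotic control cells, and 44.4 and 86.9 CPM in cKO cells. Its mitotic values exceed both resting values, and the log2 fold change was 0.63 ± 0.11 (edgeR adjusted p = 0.000419). *Hnrnpa2b1*, an RNA transport and splicing factor, had 672 and 991 CPM in control and 681 and 969 CPM in cKO cells, a log2 fold change of 0.50 ± 0.05 (edgeR adjusted p = 5.73e-07). The lowest changes among the called members were those of *Srsf3* (0.37) and *Hnrnpdl* (0.38). *Hnrnpd* (0.48), *Snrpd1* (0.48), *Hnrnpab* (0.45), *Hnrnpa0* (0.45), *Hnrnpul1* (0.45), *Srsf7* (0.40) and *Hnrnpa3* (0.38) were the others. From S phase to mitosis, 17 of 20 *Hnrnp* genes were higher in both libraries and 2 lower in both. Of 10 *Srsf* genes, 3 were higher and 6 lower in both. Median log2 CPM changes were 0.12 and 0.13 for *Hnrnp* and -0.07 and -0.13 for *Srsf* genes. Against resting basal cells the median of all genes was -0.04 and 0.03 in S-phase and 0.02 and 0.06 in mitotic cells. The share of all genes higher in both is not given, and these counts are a description that was not tested.

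In early suprabasal cells few members passed both limits. Called were 0 of 10 *Srsf* genes, 2 of 20 *Hnrnp* genes lower and 1 of 12 *Snrp* genes lower, fewer than the 16.6% of 8998 genes called higher and the 16.8% called lower. Without the fold limit, 7 members were higher and 8 lower at an adjusted p under 0.05, with 2 *Srsf* genes higher and 1 lower. At an unadjusted p under 0.05, 3 *Srsf* genes were higher and 1 lower, and DESeq2 called none of the *Srsf* genes. *Hnrnpll* encodes an hnRNP L relative known for its part in CD45 splicing in lymphocytes. It had 60.04 CPM in resting and 31.0 in early suprabasal control cells, and 41.3 and 26.3 CPM in cKO cells. Both suprabasal values lie below both resting values, with a log2 fold change of -0.90 ± 0.17 (edgeR adjusted p = 6.61e-07). *Hnrnpa1*, the most abundant member in resting basal control cells and a repressor of exon inclusion, had 976 and 595 CPM in control and 823 and 575 CPM in cKO cells. Both suprabasal values lie below both resting values, and the log2 fold change was -0.68 ± 0.07 (edgeR adjusted p = 1.29e-22). *Snrpn*, an imprinted gene whose protein resembles SmB, fell from 15.4 to 11.1 CPM in control and from 14.4 to 6.99 CPM in cKO cells (log2 fold change -0.74 ± 0.30, edgeR adjusted p = 0.0371), which rests on 66, 25, 28 and 13 UMIs in that order. DESeq2 called 1 member lower, and scaling to totals called 4 higher and 2 lower.

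**Figure D3:**
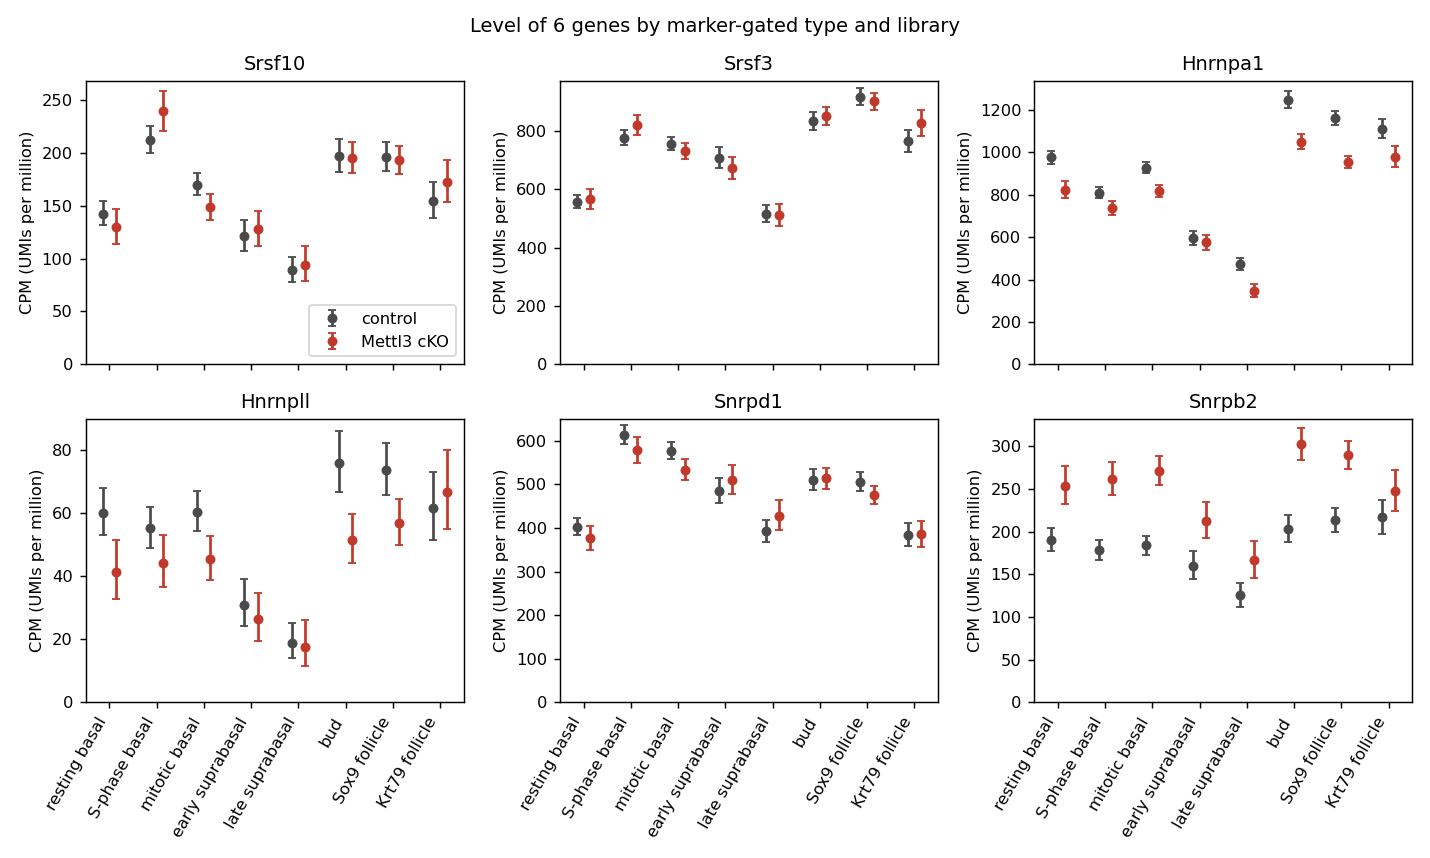
CPM of *Srsf10*, *Srsf3*, *Hnrnpa1*, *Hnrnpll*, *Snrpd1* and *Snrpb2* (y axes, from 0) in each marker-gated type (x axis) in the control and the cKO library, 1 point per library with a 95% Poisson counting interval. *Hnrnpa1* and *Hnrnpll* fall from resting basal through early to late suprabasal cells in both libraries, and *Snrpb2* is higher in the cKO library in all 8 types.

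In late suprabasal cells the calls were nearly all lower. Lower were 3 of 10 *Srsf*, 6 of 20 *Hnrnp* and 1 of 12 *Snrp* genes and higher was 1 *Hnrnp* gene, against 22.3% of 9120 genes lower and 21.3% higher. The count of 10 lower of 42 (23.8%) thus lies near the background, whereas the count of 1 higher (2.38%) lies below it, and the median was -0.27 for *Srsf*, -0.27 for *Hnrnp* and -0.05 for *Snrp* genes against -0.02 for all genes. *Hnrnpll* had 18.9 and 17.7 CPM in late suprabasal control and cKO cells, a log2 fold change of -1.46 ± 0.19 against resting basal cells (edgeR adjusted p = 5.35e-13). *Hnrnpa1* had 473 and 348 CPM there, a log2 fold change of -1.08 ± 0.08 (edgeR adjusted p = 1.08e-44). For both genes the 2 late suprabasal values lie below the 2 early suprabasal values. *Hnrnph1* (-0.69) and *Hnrnph3* (-0.67), whose proteins bind runs of G, *Hnrnpr* (-0.44) and *Hnrnpk* (-0.35), which binds runs of C, were the other *Hnrnp* genes that fell. *Snrpb2* (-0.56), *Srsf10* (-0.54), *Srsf1* (-0.40), the founding SR protein gene, and *Srsf11* (-0.33) also fell. *Hnrnpul2* rose by 0.39 ± 0.14 (edgeR adjusted p = 0.0137). All 10 tested *Srsf*, 18 of 20 *Hnrnp* and 11 of 12 *Snrp* genes were lower in late than early suprabasal cells in both libraries. On the log2 CPM scale the medians were -0.40 and -0.44 for *Srsf*, -0.33 and -0.36 for *Hnrnp* and -0.24 and -0.25 for *Snrp* genes. The median of all genes on that scale also differed, at 0.04 and 0.08 in early and -0.09 and -0.05 in late against resting basal cells. The share of all genes lower in both libraries is not given, so these counts have no background. DESeq2 called 3 members lower and 0 higher, and scaling to totals 18 lower and 1 higher.

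In bud cells 3 of 10 *Srsf* and 7 of 20 *Hnrnp* genes were higher, with 0 of 12 *Snrp* genes and no lower member called, against 14.8% of 9945 genes higher and 13.1% lower. At an unadjusted p under 0.05, 4 *Snrp* genes were higher and 0 lower, and DESeq2 called 5 members higher and 0 lower. The 4 *Snrp* genes also passed the adjusted p, as did *Srsf5* in the lower direction (-0.15, edgeR adjusted p = 0.0338), all below the fold limit. *Srsf9*, a small SR protein gene, had 95.6 CPM in resting basal and 150 in bud control cells, and 75.8 and 128 CPM in cKO cells. Both bud values exceed both resting values, with a log2 fold change of 0.55 ± 0.09 (edgeR adjusted p = 4.62e-08). *Hnrnpab*, whose protein binds AU-rich RNA, had 347 and 517 CPM in control and 291 and 477 CPM in cKO cells (0.50 ± 0.06, edgeR adjusted p = 5.30e-17). *Srsf3* (0.45), *Hnrnpdl* (0.41), *Hnrnph3* (0.40), *Srsf10* (0.38), *Hnrnpd* (0.36), *Hnrnpa2b1* (0.34), *Hnrnph1* (0.34) and *Hnrnpa0* (0.33) were the others. Scaling to totals called 22 members higher, on a scale where the median of all genes moved by 0.12 and 0.14.

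In *Sox9*-gated cells 3 of 10 *Srsf*, 1 of 20 *Hnrnp* and 1 of 12 *Snrp* genes were called higher and none lower, against 16.1% of 10528 genes higher and 13.4% lower. *Snrpn* had 15.4 CPM in resting basal and 34.4 in *Sox9*-gated control cells, and 14.4 and 25.03 CPM in cKO cells, a log2 fold change of 0.79 ± 0.19 (edgeR adjusted p = 0.000169). *Srsf9* had 174 and 144 CPM there, a log2 fold change of 0.64 ± 0.09 (edgeR adjusted p = 1.46e-11), and *Srsf3* had 917 and 900 CPM, the highest of any type in both libraries (0.46 ± 0.05, edgeR adjusted p = 1.22e-16). *Srsf4* (0.36) and *Hnrnpul1* (0.33) had the lowest changes among the called members. At an adjusted p under 0.05 and below the fold limit 4 members were lower, namely *Snrpg* (-0.24), *Snrpd3* (-0.17), *Snrpd2* (-0.16) and *Srsf5* (-0.16), and at an unadjusted p under 0.05, 5 were. DESeq2 called 2 higher and 0 lower. Scaling to totals called 20 higher, on a scale where the median of all genes moved by 0.25 and 0.24.

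In *Krt79*-gated cells 4 Sm protein genes fell relative to the median gene under TMM scaling, while under scaling to totals none was called lower. Lower were 4 of 12 *Snrp* genes and higher was 1, while 0 of 10 *Srsf* and 0 of 20 *Hnrnp* genes were called, against 15.9% of 9292 genes lower and 16.5% higher. Without the fold limit, 1 *Srsf* gene was higher and 1 lower and 2 *Hnrnp* genes lower at an adjusted p under 0.05, and 2 *Srsf* genes higher and 1 lower and 5 *Hnrnp* genes lower at an unadjusted one. DESeq2 called 1 *Srsf* and 4 *Snrp* genes lower. The 4 genes encode members of the Sm ring, and 11 of 12 *Snrp* genes had a value below 0 (median -0.20). *Snrpd3*, for SmD3, had 261 CPM in resting basal and 204 in *Krt79*-gated control cells, and 253 and 221 CPM in cKO cells (-0.51 ± 0.08, edgeR adjusted p = 1.96e-07). *Snrpg*, for SmG, had 266 and 243 CPM in control and 350 and 301 CPM in cKO cells (-0.40 ± 0.08, edgeR adjusted p = 1.26e-05). *Snrpd2* (-0.35) and *Snrpf* (-0.34) were the others, and *Snrpn* rose by 0.66 ± 0.22 (edgeR adjusted p = 0.0111). Scaling to totals called 9 members higher, on a scale where the median of all genes moved by 0.23 and 0.22. In plain CPM the falls were smaller, at -0.35 and -0.19 for *Snrpd3*.

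To ask what differed between the genotypes, the cKO library was set against the control in basal cells of every cycle state. There is 1 library of each, so there is no test, and the ratios carry an exact conditional binomial interval that covers counting error only. The summed *Snrp* level went from 4185 to 4460.5 CPM between the control and the cKO library (ratio 1.07, 1.05 to 1.08). Each cycle-gated basal type had a lower ratio. It was 1.03 (1.00 to 1.06) in resting, 1.04 (1.02 to 1.07) in S-phase and 1.03 (1.01 to 1.05) in mitotic basal cells. Resting cells were 536 of 2170 control and 253 of 1338 cKO basal cells. The part of cycle state in the ratio of all basal cells was not tested. The summed *Hnrnp* level was 6514 and 6299 CPM, a ratio of 0.967 (0.958 to 0.976), and the summed *Srsf* level was 3211 and 3170.3 CPM, a ratio of 0.987 (0.975 to 1.00). The *Snrp* sum was above the control in all 8 types, with ratios from 1.03 in mitotic basal to 1.10 in early suprabasal cells, and the *Hnrnp* sum was below it in all 8, from 0.919 in late suprabasal to 0.989 in S-phase basal cells. The *Srsf* ratio lay on both sides of 1, from 0.892 in late suprabasal to 1.02 in S-phase basal cells.

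**Figure D4:**
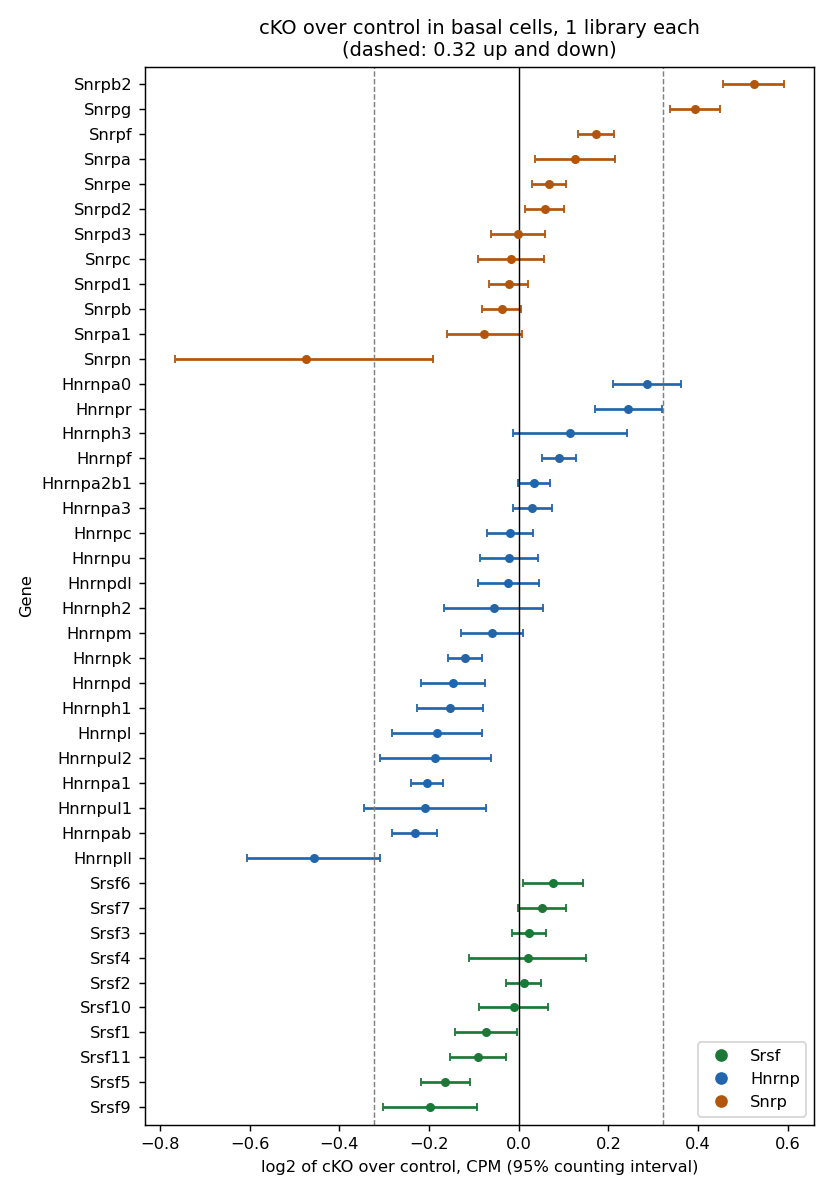
Log2 of cKO over control CPM (x axis, with 95% counting intervals) in basal cells for the 42 genes with at least 200 UMIs there (y axis), ordered within the *Srsf*, *Hnrnp* and *Snrp* families, with dashed lines at 0.32 above and below 0. *Snrpb2* and *Snrpg* lie above the upper line and *Hnrnpll* and *Snrpn* below the lower line.

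Past the same limit of 0.32 on the log2 scale were 2 of 42 members higher in cKO, *Snrpb2* and *Snrpg*, and 2 lower, *Hnrnpll* and *Snrpn*. Among all 11661 genes with at least 20 UMIs, 19.5% were that much higher and 13.6% that much lower. Among the 3580 genes with at least 1000 UMIs, a level that 41 members reached, 13.0% were higher and 7.29% lower, and the members past the fold were again 2 higher and 1 lower. These counts lie below the background in both directions, and the median log2 ratio of the 41 members was -0.02 against -0.01 for all genes of that depth. By family the median was 0.00 for *Srsf*, -0.06 for *Hnrnp* and 0.03 for *Snrp* genes with at least 20 UMIs. Among genes with at least 1000 UMIs, the counting interval lay above 1 for 6 of 11 *Snrp*, 3 of 20 *Hnrnp* and 1 of 10 *Srsf* genes, against 30.9% of all 3580 genes, and below 1 for 0, 9 and 4 of them, against 31.5%. Such intervals narrow with depth, and members differ in depth from those genes.

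*Snrpb2* encodes U2B″, which with SNRPA1 binds the U2 snRNA. Basal cells held 3827 of its UMIs in the control (185 CPM) and 3291 in the cKO library (266 CPM), and its ratio of 1.44 (1.37 to 1.51) was the highest of any member. The ratio passed that limit in 7 of 8 types and was above 1 in all 8, with log2 values from 0.19 in *Krt79*-gated to 0.58 in bud cells. Its partner gene *Snrpa1* had 155 and 147 CPM, a ratio of 0.948 (0.894 to 1.00), and lay below 1 in all 8 types. *Snrpg* had 285 and 374 CPM, a ratio of 1.31 (1.26 to 1.37), and passed the limit in 6 of 8 types, with log2 values from 0.30 to 0.47. The genes for its ring neighbours SmE and SmF had ratios of 1.05 (1.02 to 1.08) for *Snrpe* and 1.13 (1.10 to 1.16) for *Snrpf*. The other ring genes lay near 1, at 1.04 for *Snrpd2*, 0.999 for *Snrpd3*, 0.984 for *Snrpd1* and 0.974 for *Snrpb*. The 7 subunits of 1 ring thus did not share 1 ratio, and the intervals of *Snrpg* and *Snrpd3* (0.959 to 1.04) did not overlap.

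*Snrpn* had 16.3 and 11.7 CPM, the lowest level among the tested *Snrp* genes, with a ratio of 0.719 (0.588 to 0.876) that passed the limit downward in 5 of 8 types. Over all 7525 genes with at least 20 UMIs in every type, 11.4% were higher and 5.44% lower past the limit in 5 or more types, and of the 42 members in that set 2 were higher and 1 lower. In resting basal cells alone the log2 ratio of *Snrpn* was -0.09, against -0.48 in all basal cells. *Snrpn* and *Snurf* share a transcript, so tags of both fall in the same place.

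**Figure D5:**
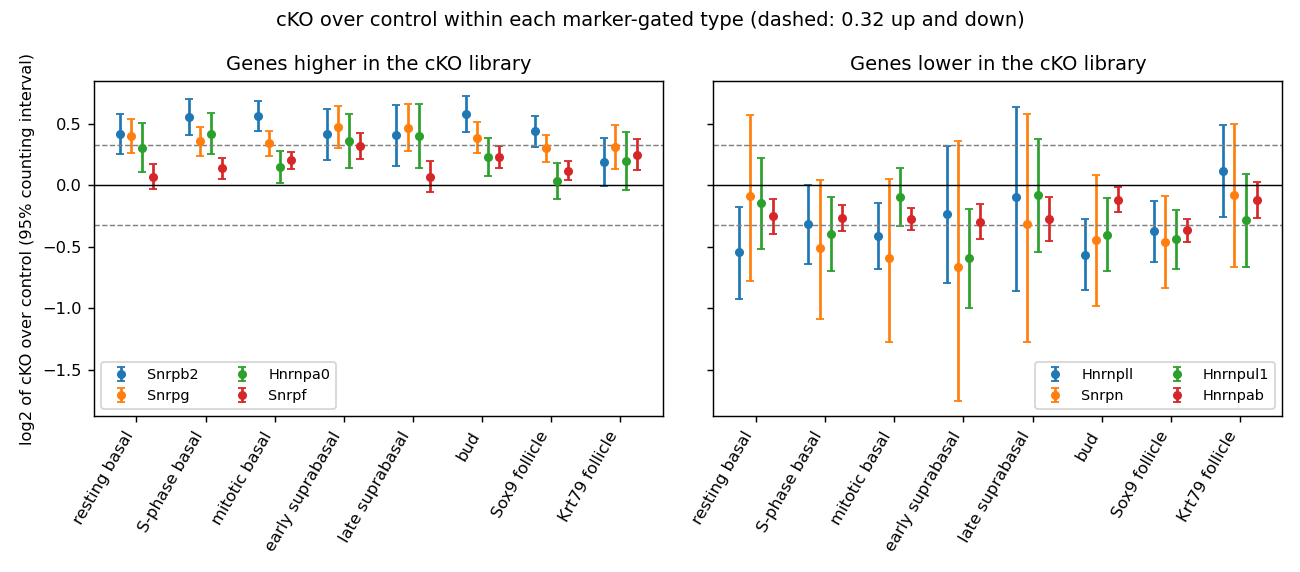
Log2 of cKO over control CPM (y axis, with 95% counting intervals) in each of 8 marker-gated types (x axis) for *Snrpb2*, *Snrpg*, *Hnrnpa0* and *Snrpf* (left) and *Hnrnpll*, *Snrpn*, *Hnrnpul1* and *Hnrnpab* (right), with dashed lines at 0.32 above and below 0. The 4 genes on the left are above 0 in all 8 types, and *Hnrnpll* is above 0 in *Krt79*-gated cells only.

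Among the *Hnrnp* genes, *Hnrnpa0*, a gene of 1 exon whose protein binds AU-rich elements, had the highest ratio, with 160 and 195 CPM in control and cKO basal cells, a ratio of 1.22 (1.16 to 1.29). It was above 1 in all 8 types. *Hnrnpr* followed with 173 and 205 CPM (1.18, 1.13 to 1.247), then *Hnrnph3* at 1.08 (0.991 to 1.18), whose interval holds 1. *Hnrnpll* had 59.3 and 43.2 CPM, a ratio of 0.729 (0.657 to 0.807), lower in 7 of 8 types and past the limit in 4. *Hnrnpab* had 449 and 382 CPM (0.851, 0.822 to 0.882) and was lower in all 8 types, as were *Hnrnpul1* (0.865, 0.787 to 0.9504), *Hnrnpa1*, *Hnrnpk*, *Hnrnpu* and *Hnrnpul2*. The most abundant of them in resting basal control cells were *Hnrnpa1*, *Hnrnpk* and *Hnrnpa2b1*. In basal cells *Hnrnpa1* had 907 and 787 CPM (0.868, 0.847 to 0.889), *Hnrnpk* 765 and 704 CPM (0.920, 0.896 to 0.944) and *Hnrnpa2b1* 821 and 840 CPM (1.02, 0.999 to 1.05). *Hnrnpc*, for the other protein with m6A-dependent binding, had 388 and 383 CPM (0.987, 0.952 to 1.02). *Hnrnph2* lies on chromosome X and had 88.3 and 85.0 CPM (0.962, 0.891 to 1.04).

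Apart from the sparse *Srsf12*, the *Srsf* ratios ran from 0.872 to 1.05, against 0.729 to 1.22 for *Hnrnp* and 0.719 to 1.44 for *Snrp* genes. The most abundant in resting basal control cells were *Srsf2*, *Srsf3* and *Srsf5*. In basal cells *Srsf2* had 696 and 702 CPM (1.01, 0.981 to 1.04), *Srsf3*, which is known to bind with the nuclear m6A reader YTHDC1, 714 and 725 CPM (1.02, 0.989 to 1.04), and *Srsf5* 369 and 329 CPM (0.893, 0.859 to 0.928). The highest ratios were those of *Srsf6* (1.05, 1.01 to 1.10), *Srsf7* (1.04, 0.998 to 1.08) and *Srsf3*, and the lowest those of *Srsf9* (0.872, 0.811 to 0.937), *Srsf5* and *Srsf11* (0.938, 0.899 to 0.980). *Srsf5* was below 1 in all 8 types and none of the tested *Srsf* genes was above 1 in all 8. *Srsf12* had 8 UMIs in control and 3 in cKO basal cells (0.627, 0.107 to 2.61), so no difference was detectable at this depth.

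Members with many coding exons had lower ratios. Over 42 members with at least 200 UMIs in basal cells, the median log2 ratio was 0.02 for 13 members with up to 5 coding exons in GENCODE vM21, -0.02 for 16 with 6 to 9 and -0.12 for 13 with 10 or more, and Spearman's rho between exon number and log2 ratio was -0.48 (Pearson's r -0.40). *Srsf11* was the only member with 10 or more coding exons that is not an *Hnrnp* gene, and no *Snrp* gene had as many. Exon number and family thus cannot be told apart at that end. The points share both libraries and their totals, the same value over all genes is not given, and the value is given as a description. Reads of some members can also match other genes, since of the 57-base words in the last 300 bases of their transcripts 46.2% occurred in another annotated gene for *Hnrnpf*, 38.1% for *Hnrnpa3*, 31.7% for *Hnrnpk*, 18.6% for *Snrpa* and 17.7% for *Snrpc*, and their values are less certain. The share was 0 for *Snrpb2*, *Snrpg*, *Snrpn*, *Hnrnpll*, *Hnrnpa1* and all 11 *Srsf* genes.

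Genes that act with the members were taken from 4 lists. Among SR kinases and SR-related proteins, 2 of 12 measured genes were past the limit and higher in cKO basal cells and 1 lower, with *Son*, for a nuclear speckle protein, highest at 331 and 453 CPM (1.37, 1.32 to 1.42) and the kinase gene *Clk3* lowest at 24.3 and 19.2 CPM (0.789, 0.673 to 0.923). Among other snRNP proteins 1 of 24 was higher and 0 lower, with *Snrnp35* of the minor spliceosome highest at 14.2 and 19.9 CPM (1.40, 1.18 to 1.66) and *Sf3b2* lowest at 206 and 169 CPM (0.817, 0.775 to 0.861). Among *Lsm* and Sm assembly genes 5 of 20 were higher and 1 lower. *Gemin6*, for a subunit of the SMN complex, had 30.8 and 61.3 CPM (1.99, 1.79 to 2.21), and *Gemin7*, *Gemin8*, *Coil* and the sparse *Lsm7* were the other genes past the fold, while *Gemin2* of the same complex was lowest at 23.4 and 16.7 CPM (0.713, 0.603 to 0.841). Among other hnRNP-like and tissue splicing regulators 1 of 19 was higher and 1 lower, namely *Rbmxl1* at 145 and 225 CPM (1.56, 1.48 to 1.64) and its X-linked parent *Rbmx* at 56.0 and 29.5 CPM (0.527, 0.468 to 0.594), whose tags can be hard to tell apart. The shares among all genes with at least 20 UMIs are those given above.

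The same lists, in the order above, were also read in the 7 type contrasts. In S-phase basal cells 5 of 12, 9 of 24, 6 of 18 and 3 of 19 genes were called higher and 0, 0, 0 and 2 lower, against 12.1% of all genes higher and 6.78% lower. In mitotic basal cells 0, 2, 7 and 3 were higher and 0, 0, 1 and 1 lower, against 9.75% and 7.93%. In late suprabasal cells 1, 3, 2 and 4 were higher and 2, 2, 5 and 8 lower, against 21.3% and 22.3%, with medians of -0.22, -0.05, -0.18 and -0.26. In bud cells 0, 3, 7 and 5 were higher and 1, 0, 0 and 2 lower, against 14.8% and 13.1%. Early suprabasal cells had 0, 3, 6 and 4 higher and 0, 1, 2 and 5 lower, against 16.6% and 16.8%. *Sox9*-gated cells had 0, 1, 4 and 0 higher and 1, 1, 2 and 1 lower, against 16.1% and 13.4%. *Krt79*-gated cells had 2, 1, 4 and 1 higher and 1, 1, 3 and 2 lower, against 16.5% and 15.9%.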

How the data were processed

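YFP+ epithelial cells were sorted from back skin by FACS (per the study, live, lineage negative, gated on integrins α6 and β1), and 1 control and 1 cKO library were made with the 10x Genomics 3′ V2 kit. The authors deposited unnormalized UMI counts for each gene in each barcode, produced by Cell Ranger against mm10. The submitters' processing notes give Cell Ranger 2.0 and the methods a later release, and the annotation release is not given in the sources used here. Every possible barcode is listed, so the filter of 1800 genes per cell was applied again, as in the methods. No doublets were called. Leaving out the 4% of cells with the most UMIs was tried instead.

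Cells with 3 or more genes and 6 or more UMIs of a fibroblast, melanocyte, endothelial, immune or red cell list, or 3 Merkel genes, were set aside first. Suprabasal cells had *Krt1* plus *Krt10* at 0.4% of UMIs or more and were split at the median share of differentiation genes. Bud cells had 2 UMIs of the bud genes, *Krt79*-gated cells 4 of *Krt79* and *Sox9*-gated cells 2 of *Sox9*, and basal cells had *Krt14* plus *Krt5* at 0.5% or more with *Krt1* plus *Krt10* under 0.1%, no *Sox9* or bud gene and at most 1 UMI of *Krt79*. Mitotic and S-phase basal cells lay at or above the 75th percentile of the share of their cycle genes and resting cells below both medians. Within 20% of a cut lay 69 cells for *Krt1* plus *Krt10*, 865 for *Krt14* plus *Krt5*, 262 for the late genes, 416 and 226 for the mitotic cuts and 608 and 551 for the S-phase cuts. Cells with 1 or 2 UMIs numbered 902 for the bud genes and 1298 for *Sox9*, and 190 had 3 or 4 of *Krt79*.

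UMIs were summed per type and library (unit CPM after division by the total), with exact Poisson intervals for levels and exact conditional binomial (Clopper-Pearson) intervals for ratios at the 95% level. These intervals cover counting error only, and PCR or culture replicates were not given, so the spread between the 2 libraries mixes genotype, sex and technique. Types were compared with edgeR 4.0.16 in R 4.3.3 (filterByExpr, TMM, quasi-likelihood test, library and type as terms, 4 columns per fit, called at an adjusted p under 0.05 and at least 1.25-fold), and DESeq2 1.42.0 was an alternative, as was scaling to totals, chosen after seeing the data. The prior degrees of freedom were infinite in 5 of 7 contrasts, 15.5 for mitotic basal and 108 for *Krt79*-gated cells, so the spread is nearly all shared across genes. The fits and intervals were tested on simulated data. The simulated fits covered the S-phase and late suprabasal contrasts and held no difference between libraries beyond their totals. They therefore do not show how the test behaves when the libraries differ, as they do here. Python 3.11.15, numpy 2.4.6, scipy 1.17.1, pandas 2.3.3 and matplotlib 3.10.9 were used. Gene positions came from GENCODE vM21 on GRCm38, the sequence of mm10, and promoters from RefSeq on GRCm38.p6.

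Named genes were, in each family, the 3 most abundant in resting basal control cells and the 3 highest and 3 lowest ratios among members with at least 200 UMIs, in each contrast the 2 highest and 2 lowest called changes, members past 1.25-fold the same way in at least 5 of 8 types, members next to the minimum of 20 UMIs and the extremes of the neighbour lists. Other called members and ring partners were named after their values were seen. The members and all gene lists were chosen with earlier results of these data known.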

Additional observations from a re-analysis of the deposited data

How the results depend on the processing

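Counts of called members depended mainly on the scale and on the fold. With no fold minimum they were 23 for S-phase basal, 20 for mitotic basal, 15 for early suprabasal, 21 for late suprabasal, 24 for bud, 18 for *Sox9*-gated and 11 for *Krt79*-gated cells, and at 1.5-fold 2 for S-phase, 1 for mitotic, 4 for late suprabasal, 0 for bud, 2 for *Sox9*-gated and 1 for *Krt79*-gated cells. Scaling to totals, chosen after seeing the data, gave 6 for early suprabasal, 19 for late suprabasal, 22 for bud, 20 for *Sox9*-gated and 9 for *Krt79*-gated cells. DESeq2 gave 1 for early suprabasal, 3 for late suprabasal, 5 for bud and 2 for *Sox9*-gated cells. A minimum of 1000 genes per cell gave 5 for early suprabasal and 10 for *Krt79*-gated cells, 2500 genes gave 6 for mitotic basal, 3 for *Sox9*-gated and 3 for *Krt79*-gated cells, and no filter on low counts gave 8 for *Krt79*-gated cells. A higher fold can only lower a count and no minimum only raise it, and the cause of the other changes was not tested. Shares of all genes called under these settings are not given, so the counts here have no background.

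Between libraries, 0 members were higher and 0 lower at 1.5-fold in place of 2 and 2, and 6 were lower in resting basal cells alone. The summed *Hnrnp* ratio was 0.956 under TMM, 0.953 under the median of ratios and 0.941 in resting basal cells. The summed *Snrp* ratio was 1.05 under both scalings (1.053 and 1.051) and 1.03 in resting basal cells. The summed *Srsf* ratio was 0.973 under the median of ratios. Under every alternative run each ratio stayed on its side of 1. In resting basal cells, though, the counting intervals of *Snrp* (1.00 to 1.06) and of *Srsf* (0.997, 0.966 to 1.03) hold 1. The log2 ratios of *Snrpb2* (0.41 to 0.53), *Snrpg* (0.36 to 0.42), *Hnrnpll* (-0.54 to -0.34) and *Snrpn* (-0.72 to -0.09) kept their sign under all 12 alternatives. Stricter gates, with higher marker minimums, kept 1739 of 2170 control and 733 of 1338 cKO basal cells. There *Hnrnpa0* went from 0.29 to 0.16 and *Snrpf* from 0.17 to 0.13. *Snrpf* lay at 0.07 in resting basal cells alone.

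No paired analysis was possible because each genotype has 1 library, and library is already a term in the type contrasts. Leaving out a library would leave no residual degrees of freedom, so for some of the named genes the values of both libraries are given instead. Depth limits *Srsf12* and *Snrpn* most.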

Other observations

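In barcodes with 10 to 100 UMIs, which hold free RNA, the *Srsf* genes summed to 3134 CPM in the control and 3123 CPM in the cKO library, the *Hnrnp* genes to 6576 and 6350 CPM and the *Snrp* genes to 5444 and 5892 CPM. *Snrpb2* had 252 and 346 CPM there, *Snrpg* 460 and 625 CPM, *Hnrnpa1* 883 and 718 CPM and *Hnrnpll* 59.3 and 48.8 CPM.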
